A study of Mus musculus with 9 samples.

Results

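Cells take up amino acids through transporters of several solute carrier families, and the genes of 7 such families (SLC1, SLC3, SLC6, SLC7, SLC36, SLC38 and SLC43) are described here in CD11b+ cells of the mouse spleen. Members were the genes whose symbol starts with Slc1a, Slc3a, Slc6a, Slc7a, Slc36a, Slc38a or Slc43a and that a probe set named alone, leaving out 1 SLC7 gene. The array held 62 such genes of 18193 genes in all, read by 123 probe sets. For each gene the probe set with the highest mean over the 9 arrays was used. A gene was called dim, and was not tested, when that mean lay under a log2 value of 2.658, below which 40% of the non-control probe sets lie; 19 members were dim and 43 were tested. The prefix also takes in 3 genes, Slc7a6os, Slc6a19os and Slc36a1os, which are named after a transporter gene near them and are not carriers themselves.

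All mice were C57BL/6. The HighThreat group, called threat here, comprised 6 mice exposed to repeated social threat, each on an array of its own. The LowThreat group, called control, comprised 6 mice kept without threat, whose RNA was pooled by 2 into control pools 1-2, 3-4 and 5-6. The design asks whether expression in these cells differs between both conditions. CD11b is carried by monocytes, macrophages, granulocytes, natural killer cells and some dendritic cells, and the labels call the cells selected from adherent splenocytes monocytes. Values are log2 expression values, so a difference of 1 is a doubling.

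Light chains of the SLC7 family carry large neutral or cationic amino acids and reach the cell surface bound to a heavy chain of the SLC3 family, while the cationic amino acid transporters of SLC7 work alone. SLC1 and SLC38 hold carriers of glutamate, glutamine and small neutral amino acids, and SLC6 holds sodium-coupled carriers of neurotransmitters, osmolytes and neutral amino acids. In macrophages, arginine uptake feeds nitric oxide synthase and arginase, and leucine, arginine and glutamine act on the kinase complex mTORC1 at the lysosome.

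The arrays had near-equal medians (3.19 to 3.22 on the log2 scale) and resembled their own group (Pearson r across tested genes, which are not independent, at least 0.996 within a group and at most 0.977 between groups). The sort antigen gene Itgam read 7.91 to 7.96 in control pools and 8.40 to 8.58 in threat animals. The 3' minus 5' signal of the beta-actin control probe sets, a measure of RNA integrity, averaged 0.472 over the pools and 0.357 over the threat animals (p = 0.0238, exact permutation test, two-sided), and that of Gapdh -0.035 and -0.071 (p = 0.512). Markers of several cell types differed between the groups, as given per list as the mean log2 level of its tested genes on an array. Of 16 granulocyte markers (Mmp8 and Lcn2 first by p) 15 rose and none fell, and the level ran from 8.57 to 8.72 in control and from 9.89 to 10.31 in threat arrays. All 8 markers of dividing cells (Ube2c, Ccnb2) rose, from a level of 4.94 to 5.06 to one of 5.87 to 6.55. Of 11 B cell markers (Fcrla, Cd79a) 10 fell and none rose (6.55 to 6.76 against 4.55 to 4.92), of 10 natural killer cell markers (Klrd1, Gzma) 9 fell and none rose (5.59 to 5.78 against 3.90 to 4.09), and of 9 dendritic cell markers (Ccr7, Cd209a) 8 fell and none rose (5.91 to 6.00 against 4.99 to 5.04). Of 5 plasma cell markers (Irf4, Mzb1) 4 fell and 1 rose (7.12 to 7.33 against 5.95 to 6.14), of 8 T cell markers (Cd5, Cd3d) 5 fell and none rose (4.58 to 4.69 against 4.27 to 4.29). Of 14 splenic macrophage markers (Hpgd, Timd4) 8 fell and 2 rose (6.40 to 6.51 against 5.93 to 6.02), of 7 monocyte markers (Cd14, Cx3cr1) 5 rose and 1 fell (8.63 to 8.78 against 8.91 to 9.003), and of 7 erythroid and platelet markers (Ppbp, Gp9) 4 rose and none fell (4.47 to 4.64 against 4.66 to 4.81). Tnfrsf17, Cd3g and Slc4a1 were dim, and values of this kind hold no true 0. All called differences below move with these lists and with the beta-actin measure, whose part in them was not tested, and in such bulk samples fewer cells of a type and less RNA per cell cannot be told apart.

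Among the members, 5 were higher and 11 lower, Slc7a6os among the latter, in threat mice at a Benjamini-Hochberg adjusted p under 0.05 (limma over 13078 genes). These 16 are 37.2% of the 43 tested, where 45.8% of all tested genes were called (23.8% higher and 22% lower). Among genes at or above the median level of all tested genes, 8 of 16 members (50%) and 62.5% of all genes were called, and among those under it 8 of 27 members (29.6%) and 29.2% of all genes. A difference of at least 1.5-fold was called in 9 of the 43, 3 higher and 6 lower, beside 11.2% of all tested genes (5.31% higher and 5.9% lower). The share of members was thus smaller than that of all genes without the 1.5-fold limit and larger with it. Neither gap was tested, and both rest on few genes. The values of both groups did not overlap in 16 members, against 41.8% of all tested genes. The median difference of the tested members was 0.023, and that of all tested genes was 0.029. The calls lay unevenly between families, counted by prefix: 8 of 10 tested SLC7 genes and 4 of 7 SLC38 genes were called, 3 of 13 SLC6 genes, 1 of 5 SLC1 genes and none of 1 SLC3, 4 SLC36 and 3 SLC43 genes. The SLC7 count takes in Slc7a6os, which was called, and the SLC6 count takes in Slc6a19os, which was not, and neither is a carrier.

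**Figure D1:**
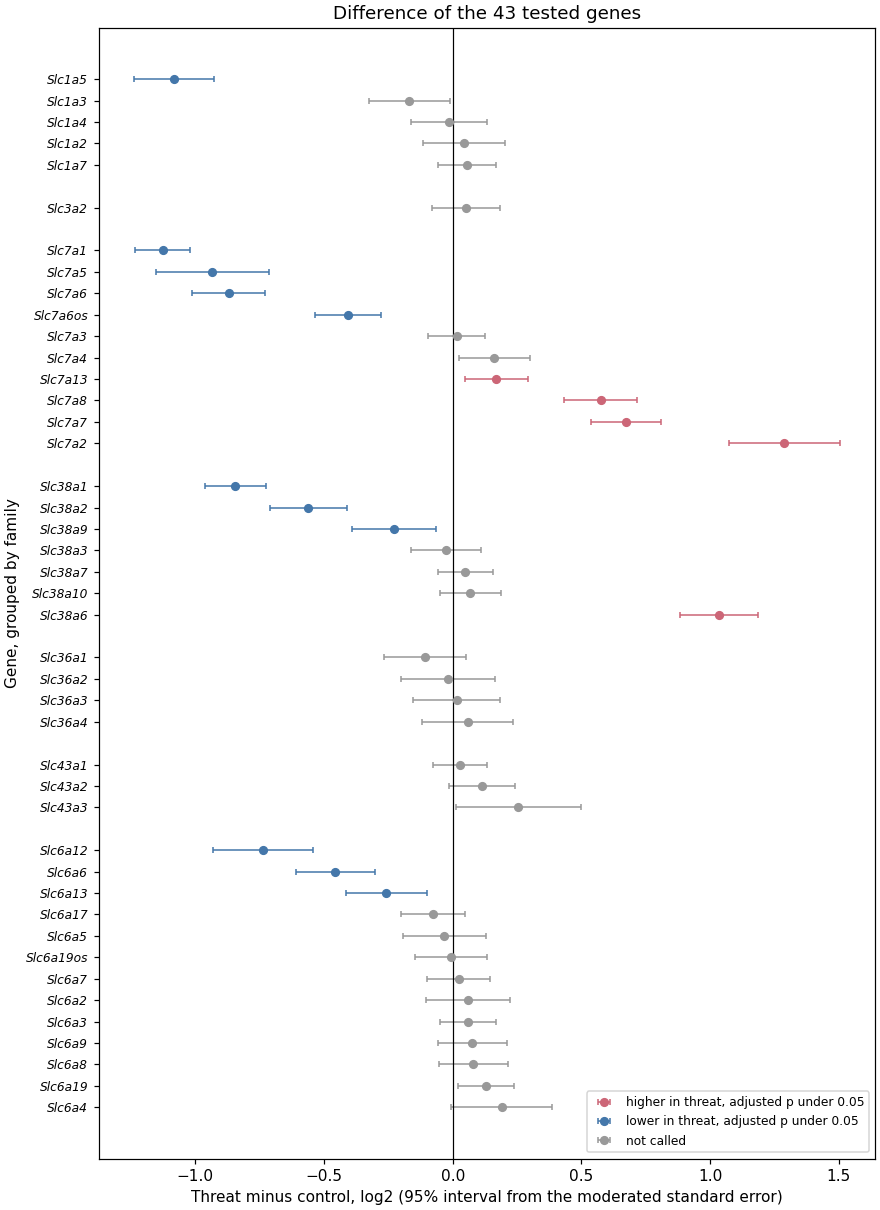
Threat minus control difference on the log2 scale for the 43 tested genes, grouped by family, with the 95% interval from limma's moderated standard error; red and blue mark genes higher and lower in threat mice at an adjusted p under 0.05, grey the rest. The SLC7 family holds both the largest rise (Slc7a2, 1.29) and the largest fall (Slc7a1, -1.13), and the heavy chain gene Slc3a2 lies near 0.

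The cationic amino acid transporters moved in opposite directions. Slc7a1 encodes CAT-1, the widely expressed uptake route for arginine, lysine and ornithine. Its values were 8.0, 8.02 and 7.90 in control pools 1-2, 3-4 and 5-6, and 6.94, 6.84, 6.84, 6.82, 6.83 and 6.83 in threat animals 1 to 6. Every threat array lay about 1 unit under every pool, and the fall was 1.13 (SE 0.049, adjusted p = 2.9e-09, limma), a 2.18-fold difference. Slc7a2 encodes CAT-2, whose transcripts activated macrophages induce and which supplies arginine to nitric oxide synthase and arginase. Its values were 3.38, 3.82 and 3.55 in the pools and 4.84, 4.87, 4.82, 4.81, 5.15 and 4.74 in the threat animals. Threat animal 5 was the highest and no threat value came near a pool. The rise was 1.29 (SE 0.099, adjusted p = 4.2e-07), a 2.44-fold difference. A level cannot be compared between probe sets, but the shift of their difference on an array can: Slc7a2 minus Slc7a1 went from -4.39 on average in the pools to -1.98 in threat animals, a shift of 2.41. Other probe sets went the same way for both genes, with -1.08 (adjusted p = 3.2e-07 over all probe sets) for the second brightest of Slc7a1 and 1.04 (adjusted p = 9.5e-06) for that of Slc7a2, which lies near the dim range at a mean of 2.69. A further one of Slc7a2, at a mean of 2.68, rose by 0.44 (adjusted p = 0.011), and with the mean of all its probe sets the rise of Slc7a2 was 0.76 (adjusted p = 2.3e-07). The remaining probe set of Slc7a1, also near the dim range at 2.78, differed by -0.093 (adjusted p = 0.34). The CAT-3 gene Slc7a3 had a mean of 2.67, just over the filter, and differed by 0.016 (adjusted p = 0.83). Slc7a4, a relative without an established substrate, differed by 0.16 (SE 0.063, adjusted p = 0.052) and was called in 7 of 20 alternatives, with an adjusted p of 0.0072 without control pool 3-4.

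The light chains split in the same manner, while their common heavy chain did not pass the test. Slc3a2 encodes CD98hc (4F2hc), the chain that brings the light chains to the surface, and it read 9.76 to 9.84 in the pools and 9.68 to 9.97 in threat animals. The groups overlapped, the difference was 0.052 (SE 0.061, adjusted p = 0.53) and its 95% interval ran from -0.081 to 0.18. The other heavy chain gene, Slc3a1, which serves the kidney and gut, was dim at a mean of 1.96.

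Slc7a5 encodes LAT1, the exchanger of leucine and other large neutral amino acids that dividing and activated lymphocytes rely on. It read 5.56, 5.61 and 5.46 in the pools and 4.75, 4.73, 4.61, 4.48, 4.29 and 4.81 in threat animals 1 to 6. All threat values lay under all pools, with more spread between animals (SD 0.20) than in any other called member. The fall was 0.93 (SE 0.10, adjusted p = 7.9e-06), a 1.91-fold difference. A light chain with overlapping substrates, Slc7a8 or LAT2, rose by 0.57 (SE 0.065, adjusted p = 1.2e-05). Its pools read 4.81, 4.70 and 4.98 and the threat animals 5.34 to 5.51. Slc7a8 minus Slc7a5 on the same array went from -0.71 to 0.79, a shift of 1.51. Slc7a5, Slc7a8 and Slc3a2 were each read by 1 probe set, so no other one can be set beside it.

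Slc7a6 and Slc7a7 encode y+LAT2 and y+LAT1, which exchange arginine or lysine for neutral amino acids. Slc7a6 fell by 0.87 (SE 0.065, adjusted p = 3.0e-07), from 5.12, 5.25 and 5.41 in the pools to 4.38, 4.27, 4.38, 4.44, 4.40 and 4.46 in the threat animals. Its other probe set fell by 0.87 too (adjusted p = 4.1e-07 over all probe sets). Slc7a7, the form of macrophages and epithelia whose loss in humans causes lysinuric protein intolerance, rose by 0.67 (SE 0.063, adjusted p = 2.2e-06). It read 6.14, 6.11 and 5.97 in the pools and 6.59, 6.78, 6.78, 6.70, 6.79 and 6.84 in threat animals, and its other probe set rose by 0.74 (adjusted p = 2.2e-05). Slc7a7 minus Slc7a6 went from 0.81 to 2.36 on average, a shift of 1.54. The neighbour of Slc7a6 in the genome, Slc7a6os, which encodes no carrier, fell by 0.41 (SE 0.058, adjusted p = 8.9e-05), from 4.61 to 4.74 in the pools to 4.16 to 4.39 in threat animals. Slc7a13, a light chain of the kidney, was called at a rise of 0.17 (SE 0.057, adjusted p = 0.028), but its groups overlapped, 3 threat animals and control pool 3-4 had the same value of 3.08, and the call was lost when any of control pool 1-2 (adjusted p = 0.096), control pool 5-6 (0.14), threat animal 4 (0.054) or threat animal 5 (0.051) was left out, or when threat animals were averaged in number pairs (0.075). Slc7a9, Slc7a10, Slc7a12, Slc7a14 and Slc7a15 were dim.

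**Figure D2:**
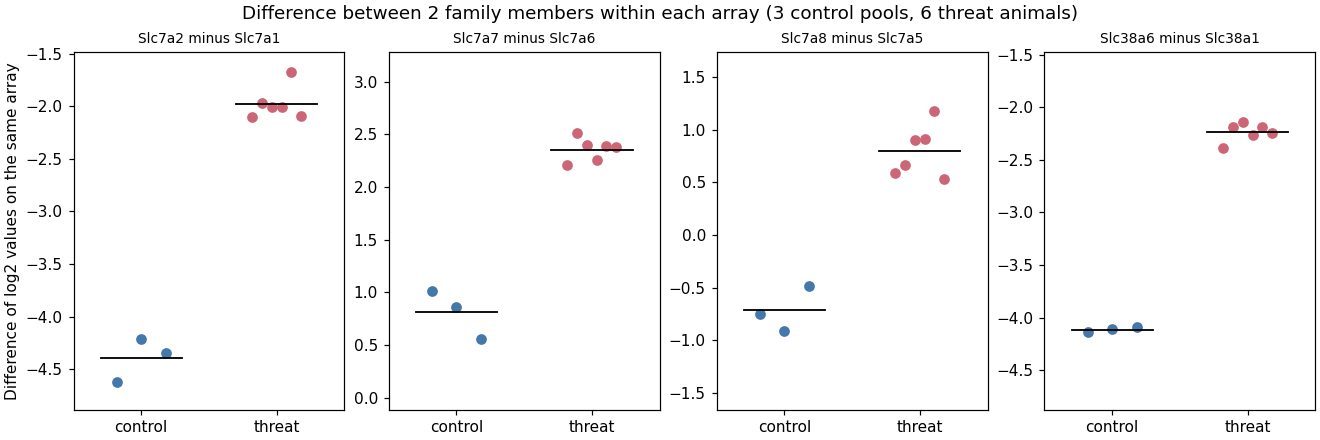
Difference between the log2 values of 2 family members on the same array, 1 point per array (blue, 3 control pools; red, 6 threat animals) with the group mean as a line. The pairs were chosen after the values were seen, each sets a gene that rose against one that fell, and only the shift between groups can be read. The means shift by 2.41, 1.54, 1.51 and 1.88 from left to right. The lack of overlap follows from that of the single genes and adds nothing to it.

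Among carriers of glutamine and small neutral amino acids, Slc1a5, Slc38a1 and Slc38a2 were lower, Slc38a6 was higher and others did not pass. Slc1a5 encodes ASCT2, an exchanger of glutamine, serine, alanine and other neutral amino acids. It read 6.36, 6.32 and 6.63 in the pools and 5.34, 5.42, 5.35, 5.21, 5.40 and 5.39 in threat animals 1 to 6. The pools stood about 1 unit above every threat animal. The fall was 1.08 (SE 0.071, adjusted p = 9.3e-08), a 2.12-fold difference, and a dimmer probe set fell by 0.50 (adjusted p = 0.026 over all probe sets). Slc1a4, or ASCT1, a related exchanger of small neutral amino acids, differed by -0.015 (adjusted p = 0.88). Slc38a1 encodes SNAT1, a sodium-coupled glutamine transporter. It read 8.70, 8.75 and 8.76 in the pools against 7.94, 7.97, 7.88, 7.79, 7.97 and 7.82, a fall of 0.84 (SE 0.054, adjusted p = 7.7e-08), and its other probe set fell by 0.75 (adjusted p = 1.8e-06). Its neighbour in the genome, Slc38a2 or SNAT2, the system A carrier that cells raise when starved of amino acids, fell by 0.56 (SE 0.069, adjusted p = 2.4e-05), from 8.90 to 9.18 in the pools to 8.31 to 8.54 in threat animals. Of the remaining probe sets of Slc38a2, one fell by 0.53 (adjusted p = 0.0085) and a dimmer one differed by 0.0055 (adjusted p = 0.97), and with the mean of all 3 the difference was -0.36 (adjusted p = 0.0013).

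Slc38a6 was the SLC38 gene that rose. It encodes SNAT6, a less well characterised member of the family. Its pools read 4.57, 4.64 and 4.67 and the threat animals 5.55, 5.78, 5.73, 5.53, 5.79 and 5.57. The rise was 1.03 (SE 0.069, adjusted p = 1.2e-07), a 2.05-fold difference, and a dim second probe set went from 1.69 to 2.13. Slc38a6 minus Slc38a1 on the same array shifted by 1.88, from -4.11 to -2.24 on average. Slc38a9 encodes a lysosomal carrier that senses arginine for mTORC1. It was lower by 0.23 (SE 0.074, adjusted p = 0.024), from 4.06 to 4.16 in the pools to 3.68 to 4.05 in threat animals, but without control pool 1-2 (adjusted p = 0.087) or without control pool 3-4 (0.068) it was not called. All 7 probe sets of Slc38a9 differed downwards, by 0.084 to 0.40, of which 2 passed over all probe sets. Slc38a7, a lysosomal glutamine carrier, differed by 0.049 (adjusted p = 0.45), Slc38a10 by 0.068 (0.34) and Slc38a3 by -0.026 (0.77). Slc38a4 and Slc38a5 were dim.

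The glutamate transporters of SLC1 did not pass. Slc1a3, or GLAST, differed by -0.17 (adjusted p = 0.078), and was called without control pool 5-6 (-0.27, adjusted p = 0.0026) and with estimated array weights (-0.21, 0.017). With its probe set specific to 1 transcript the sign turned (0.049, adjusted p = 0.69), so no direction is read for Slc1a3. Slc1a2, or GLT-1, differed by 0.044 (adjusted p = 0.66) and Slc1a7 by 0.055 (0.42). Slc1a1 and Slc1a6 were dim. Of the SLC43 uniporters of branched-chain amino acids, Slc43a2, or LAT4, read 8.44 to 8.62 in the pools and 8.54 to 8.74 in threat animals, a difference of 0.11 (SE 0.058, adjusted p = 0.14). Its other probe sets disagreed, one higher by 0.17 (adjusted p = 0.041 over all probe sets) and one at -0.20 (0.30). Slc43a1, or LAT3, lay near the dim range at 2.90 and differed by 0.028 (0.68). Slc43a3, a purine base carrier, differed by 0.25 (SE 0.11, adjusted p = 0.082). The proton-coupled SLC36 transporters, of which Slc36a1 sits on lysosomes, differed by -0.11 (Slc36a1, adjusted p = 0.25), 0.058 (Slc36a4, 0.60), 0.016 (Slc36a3, 0.89) and -0.018 (Slc36a2, 0.89).

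**Figure D3:**
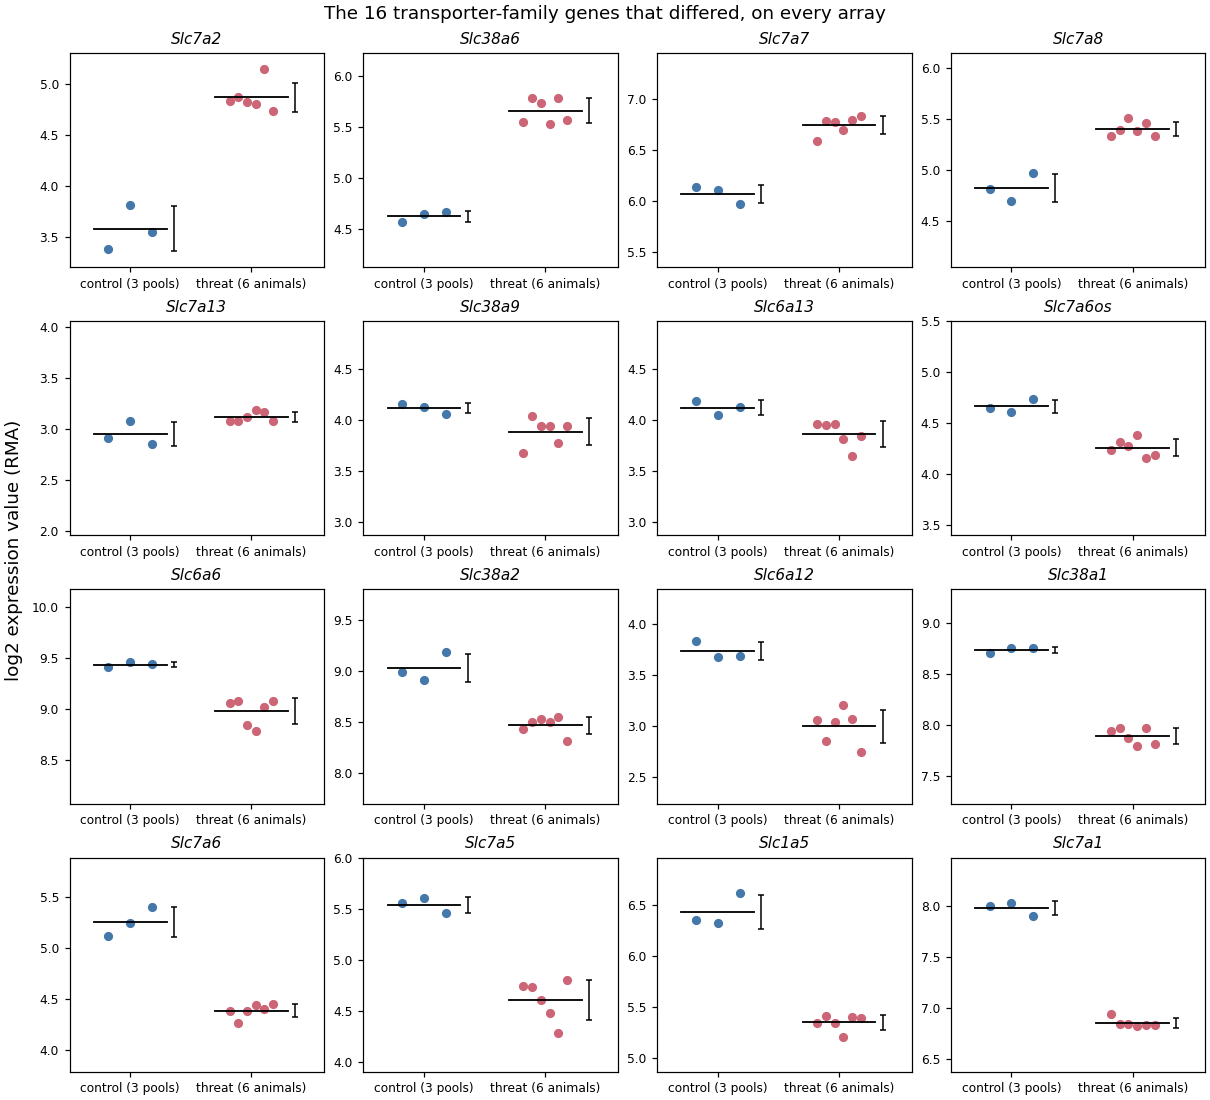
Log2 expression values of the 16 called genes on every array (blue, 3 control pools; red, 6 threat animals), ordered from the largest rise to the largest fall, with the group mean as a line and 1 SD as a bar; each panel spans 2.1 log2 units. In all panels but that of Slc7a13 the groups do not overlap.

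The SLC6 genes that changed carry osmolytes and GABA, not proteinogenic amino acids. Slc6a6 encodes the taurine transporter. It read 9.41, 9.45 and 9.44 in the pools and 8.79 to 9.08 in threat animals, a fall of 0.46 (SE 0.071, adjusted p = 0.00018). A second bright probe set fell by 0.24 (adjusted p = 0.0070 over all probe sets), and a pair of dimmer ones differed by 0.095 and 0.14 without passing, so that the mean of the 4 differed by -0.11 (adjusted p = 0.042). Slc6a12, the betaine and GABA transporter BGT1, read 3.83, 3.67 and 3.69 in the pools and 3.06, 2.86, 3.04, 3.20, 3.07 and 2.75 in threat animals, which lies close to the dim range. The groups did not overlap and the fall was 0.74 (SE 0.089, adjusted p = 2.1e-05). Its neighbour in the genome, the GABA transporter gene Slc6a13, read 4.05 to 4.19 in the pools and 3.65 to 3.97 in threat animals and fell by 0.26 (SE 0.073, adjusted p = 0.011), a call lost without control pool 1-2 (adjusted p = 0.057). Betaine and taurine are organic osmolytes.

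The monoamine transporters of SLC6 did not pass. The noradrenaline transporter gene Slc6a2 differed by 0.058 (SE 0.075, adjusted p = 0.56), the dopamine transporter gene Slc6a3 by 0.060 (0.37) and the serotonin transporter gene Slc6a4 by 0.19 (SE 0.091, adjusted p = 0.11). The glycine transporter genes Slc6a9 and Slc6a5 differed by 0.077 (0.34) and -0.033 (0.76), and the genes of the carriers of proline, Slc6a7, and creatine, Slc6a8, by 0.023 (0.78) and 0.080 (0.32). Slc6a17, a carrier of synaptic vesicles, differed by -0.076 (0.31), but its other probe sets lay on the other side, at 0.12 (adjusted p = 0.185 over all probe sets) and 0.19 (0.0155, which passes), so no direction is read for Slc6a17. No difference was called for Slc6a19os, which differed by -0.0062 (0.95). Slc6a19, an epithelial carrier of neutral amino acids, was higher in all 6 threat animals than in any pool, by 0.13 (SE 0.050), and missed the threshold at an adjusted p of 0.051. It was called in 5 of 18 alternatives that tested it. Over the 27 tested members that were not called, differences ran from -0.17 to 0.25.

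The 19 dim members had means of 1.31 to 2.57 and differences of -0.18 to 0.24. The files give no detection call, so signal and background were not told apart there. They comprised 8 SLC6, 5 SLC7, 2 SLC1, 2 SLC38, 1 SLC3 and 1 SLC36 gene, the last being Slc36a1os, which is no carrier. Nearest to the filter were Slc36a1os (2.57), Slc7a10 (2.54), Slc6a16 and Slc6a21 (2.52 each) below it, and Slc7a3 (2.67), Slc6a19os (2.68) and Slc6a5 (2.82) above it. No tested member had a group mean under the filter, so none was tested through 1 group alone. Of the dim genes, Slc7a10 had a group mean over the filter, 2.67 in control.

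Promoter windows from RefSeq (GRCm38.p6, 250 bases before to 50 after a start) were held for 45 of the 62 members, among them 10 of the 16 called; Slc7a2, Slc7a13, Slc7a5, Slc1a5, Slc38a1 and Slc6a6 had none. They were searched on both strands for TGATGCAA, the core of the element through which C/EBP and ATF4 act on amino acid response genes, for TGACGTCA, the cAMP response element, and for CACGTG, the E-box that Myc and TFEB can bind. The core was found in 2 of 45 members (1.03% of all genes of the table), the cAMP element in 1 (2.03%) and the E-box in 9 (20% against 8.09%). None of the 7 called lower held any of the motifs, 2 of the 3 called higher did, and the 9 with an E-box were all uncalled or dim. The 2 genes called higher matched different motifs, and these counts are too small to set genes that fell against genes that rose. The matches in members that rose, the match in Slc1a4 and 1 E-box of the lysosomal carrier gene Slc36a1 are shown, as examples of each motif, with 30 bases each, 5′ to 3′ on the gene's strand, with the motif in capitals. In Slc1a4 the match lies on the opposite strand, so its capitals are the reverse complement of TGATGCAA.
Slc7a7, chr14:54417927-54417956, minus strand: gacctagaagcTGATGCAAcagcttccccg
Slc38a6, chr12:73286716-73286745, plus strand: tcggaggctggTGACGTCAtcactgctggc
Slc1a4, chr11:20332699-20332728, minus strand: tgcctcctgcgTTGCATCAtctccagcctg
Slc36a1, chr11:55204298-55204327, plus strand: gaatggagcggCACGTGacctgggctaggg
A match is a description of letters and no sign that a factor binds.

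Median CpG counts of the promoters of genes that fell and of genes that rose both lay above that of the whole table. The 250 bases before a start, averaged over the starts of a gene, held a median of 60% G and C and 15 CpG in the 7 genes that fell and 55.8% and 14 CpG in the 3 that rose, beside 55.0% and 10 in the 19 members not called and 52.4% and 6 over all genes of the table. The 100 bases before the most upstream start are shown for Slc7a1, Slc7a6 and Slc38a2, which fell, and for Slc38a6 and Slc7a8, which rose, with each CpG in capitals. The capital C that ends the stretch of Slc38a2 belongs to a CpG whose G is the next base, which is not shown.
Slc7a1, chr5:148399905-148400004, minus strand: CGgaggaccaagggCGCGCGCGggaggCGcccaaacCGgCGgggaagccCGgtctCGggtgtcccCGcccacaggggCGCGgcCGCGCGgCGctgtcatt
Slc7a6, chr8:106168754-106168853, plus strand: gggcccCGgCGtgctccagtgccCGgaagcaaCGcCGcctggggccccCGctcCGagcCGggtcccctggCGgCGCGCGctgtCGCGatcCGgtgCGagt
Slc38a2, chr15:96699729-96699828, minus strand: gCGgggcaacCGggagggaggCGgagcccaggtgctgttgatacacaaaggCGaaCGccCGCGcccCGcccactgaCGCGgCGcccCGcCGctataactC
Slc38a6, chr12:73286748-73286847, plus strand: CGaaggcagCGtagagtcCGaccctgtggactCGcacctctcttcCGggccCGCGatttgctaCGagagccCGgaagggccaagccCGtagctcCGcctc
Slc7a8, chr14:54781887-54781986, minus strand: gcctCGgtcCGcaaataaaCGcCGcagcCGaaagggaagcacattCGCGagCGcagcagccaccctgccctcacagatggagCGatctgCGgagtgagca
The 250 bases before these starts held 30 CpG each in Slc38a2 and Slc7a6, against 21 for Slc7a1 and Slc38a6 and 14 for Slc7a8. Starts not shown varied more widely. Among genes that fell, the count was 23 in Slc7a6os, 15 in Slc38a9, 2 to 9 in Slc6a13 and 2 to 5 in Slc6a12. It was 4 to 10 in Slc7a7, which rose, and the other starts of Slc7a1 and Slc7a6 held 5 and 38.

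Genes that act with the transporters were read from lists of amino acid handling. In the amino acid response, the programme by which starved cells raise transporters through the kinases that phosphorylate eIF2 and the factor ATF4, 11 of 24 tested genes were lower and 3 higher, and the median difference was -0.15. Eif2ak4 (GCN2), the eIF2 kinase that senses amino acid lack and was picked out after its value was seen, fell by 0.52 (SE 0.082, adjusted p = 0.00019). Eif2ak3 (PERK), the eIF2 kinase of endoplasmic reticulum stress, fell by 1.88 (SE 0.085, adjusted p = 4.4e-09) and the stress factor gene Atf3 by 0.64 (SE 0.056, adjusted p = 1.3e-06). The asparagine synthetase gene Asns, a classic target of the programme, went the other way and rose by 1.66 (SE 0.13, adjusted p = 4.0e-07), from 4.08 ± 0.27 (SD, n = 3) to 5.74 ± 0.20 (SD, n = 6). Cebpb, which has the highest mean there, was 0.11 higher without passing (adjusted p = 0.071). Of 19 genes of cytosolic aminoacyl-tRNA synthetases, which charge tRNA with amino acids, 10 fell and 1 rose (median -0.21). Iars fell by 0.91 (SE 0.074), Eprs by 0.67 (SE 0.057), Tars by 0.44 (SE 0.063) and Nars, the brightest, by 0.21 (SE 0.043).

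Amino acid sensing upstream of mTORC1 was mixed, with 12 of 32 tested genes lower and 8 higher (median -0.027). Sesn3 and Sesn1, which encode sestrins, proteins that restrain mTORC1, fell by 1.27 (SE 0.065) and 1.19 (SE 0.082). Fnip2, a partner of folliculin, fell by 0.66 (SE 0.053), and Lamtor1, the lysosomal anchor of the complex, rose by 0.42 (SE 0.065). Of 27 enzymes of amino acid metabolism 10 fell and 9 rose (median 0.011). The aspartate aminotransferase gene Got1 and the ornithine decarboxylase gene Odc1 fell by 1.43 each (SE 0.058 and 0.081), Gatm, which starts creatine synthesis from arginine, rose by 1.24 (SE 0.088), and Sat1, of polyamine breakdown, fell by 0.23 (SE 0.046).

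Carriers of amino acids outside the 7 families moved in both directions as well, with 8 of 18 higher and 4 lower (median 0.078). Slc16a10, the uniporter of aromatic amino acids, rose by 0.84 (SE 0.069, adjusted p = 7.2e-07) and Slc25a12, the mitochondrial aspartate and glutamate carrier, by 0.60 (SE 0.056, adjusted p = 2.2e-06). Mfsd12, needed for cysteine import into lysosomes, fell by 1.03 (SE 0.062, adjusted p = 4.4e-08), and Slc15a3, a lysosomal carrier of histidine and peptides, differed by -0.027 (adjusted p = 0.67). None of these lists was tested as a set, and they are to be read beside the share of called genes in the whole table, 45.8%.

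**Figure D4:**
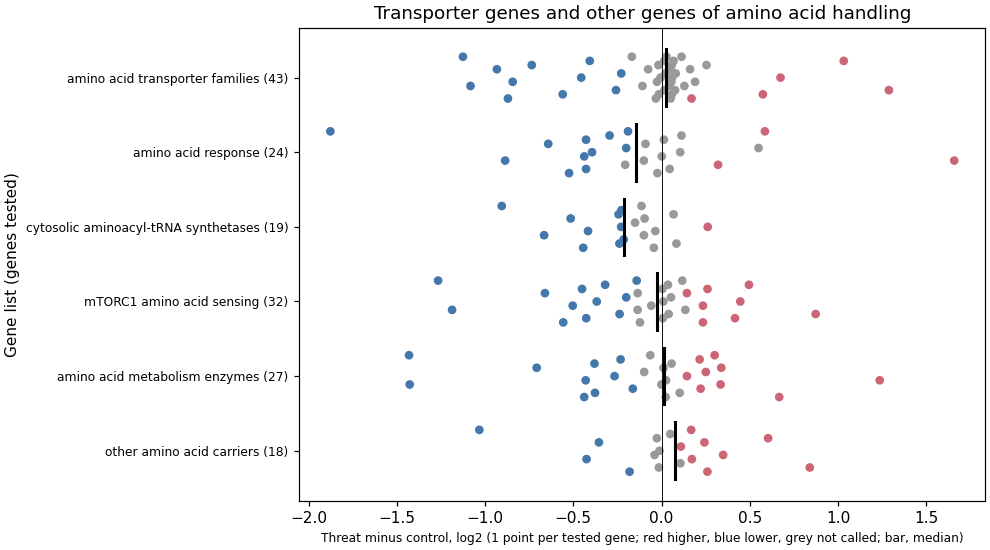
Threat minus control difference on the log2 scale, 1 point per tested gene (red higher, blue lower, grey not called at an adjusted p of 0.05), for the transporter families and 5 lists of amino acid handling; the bar is the median. Medians lie between -0.21 for the aminoacyl-tRNA synthetases and 0.078 for the other carriers, and every list holds genes called in both directions.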

How the data were processed

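The deposited table holds 1 log2 value per probe set and array, 45101 probe sets on 9 arrays, which the authors computed with RMA, as the submitters' processing notes name it (how RMA was run is not given in the sources used here), and the log2 base was read from the range of the values (0.607 to 13.567). RMA gives no detection call, and the number of arrays limits the precision of every difference. No label records a batch. p-values measure the spread between arrays of single animals and of pools, which need not be equal.

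Gene names came from the platform annotation (34945 probe sets name 1 gene, 932 several, 9160 none), and old symbols were replaced by those of RefSeq (GRCm38.p6). Threat minus control was fitted with limma 3.58.1 in R 4.3.3 (lmFit, eBayes, equal weights) over all 13078 genes that passed the filter, with two-sided p-values adjusted over all of them. The SE is limma's moderated standard error, and 95% intervals are not adjusted for the number of genes. Values after ± are SD. Probe sets were also fitted singly. In simulated data of 13078 genes and 50 changed genes per size, 44% of changes of 0.25, 88% of 0.5, 98% of 1 and 100% of 2 were recovered, with 13 false calls in all. Far fewer genes changed there than the 45.8% called in the data, and pools and single animals were given the same spread. The simulation checks the fit and does not measure its power on these data.

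The members and gene lists were chosen with earlier results of these data known. All members are named; members called at 1.5-fold or more are given on every array, and from each pathway list the 3 smallest p-values and the highest mean. Of 252 list genes 215 were tested. Marker lists are given by counts, levels and up to 2 names. The alternatives are listed with their effects in the closing section.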

Additional observations from a re-analysis of the deposited data

Results flagged for a closer look

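In 8 of the 43 tested members 1 of the 6 threat animals stood apart from the other 5 by Dixon's test at the 95% level. The nominal rate of about 1 in 20 assumes normal values without ties, and the share over all tested genes was not counted. Equal values stood on 6 arrays in Slc43a1, on 4 in Slc7a3 and on 3 in Slc6a3, so no excess is read. Threat animal 1 was highest for Slc7a1 (6.942, others 6.82 to 6.84) and threat animal 5 was highest for Slc7a2 (5.15, others 4.74 to 4.87). Threat animal 4 was lowest for Slc1a5 (5.212, others 5.34 to 5.42). In these called genes the animal that stood apart remained on its own group's side of all control pools. Threat animal 4 was also highest for Slc43a1 (3.022, others 2.86 to 2.89) and Slc7a3 (2.802, others 2.59 to 2.67). Threat animal 2 was lowest for Slc36a3 (4.203, others 4.38 to 4.45), Slc6a2 (4.427, others 4.685 to 4.793) and Slc6a3 (2.896, others 3.00 to 3.02). None of these 5 genes was called.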

How the results depend on the processing

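Under 20 alternatives, 9 of them leaving out an array, all 9 members called at 1.5-fold or more that an alternative still tested kept call and direction, and no called member reversed; Slc6a12 was not tested at the 60th percentile filter. The members called higher numbered 5, and 8 with quantile normalization, where Slc43a3, Slc6a19 and Slc7a4 were added. Slc7a4 gained a call in 7 settings, Slc6a19 in 5, and Slc43a3 and Slc1a3 in 2 each. Leaving out 1 array gave 4 to 7 higher, 9 to 12 lower and 5310 to 5806 of all genes, against 5, 11 and 5995. The other settings gave 4 to 8 higher, 10 to 12 lower and 5428 to 6283 of all genes. Slc7a13, Slc38a9 and Slc6a13 lost their calls in 5, 2 and 1 settings. With the mean of all probe sets of a gene, differences shrank to 0.76 for Slc7a2, -0.77 for Slc7a1, -0.36 for Slc38a2 and -0.11 for Slc6a6. This mean takes in dimmer probe sets whose differences were smaller in size, and for Slc6a6 also of opposite sign (0.095 and 0.14). Why the probe sets of a gene differ was not tested. The replicate block by number pair gave 16 called members, the same 16, and 5945 genes in all. No label says whether the numbers pair the arrays. The correlation of deviations was 0.149 for 1-2, -0.152 for 3-4 and -0.029 for 5-6, which cannot settle it.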

Other observations

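Beside the opposed arginine transporters Slc7a1 and Slc7a2, genes of arginine, ornithine and polyamine metabolism, grouped after their values were seen, also went both ways. The mitochondrial arginase gene Arg2 rose by 0.67 (SE 0.048, adjusted p = 2.4e-07, limma), the inducible nitric oxide synthase gene Nos2 by 0.22 (SE 0.064, adjusted p = 0.013) and the argininosuccinate lyase gene Asl by 0.33 (SE 0.046, adjusted p = 6.2e-05). Nos2 was close to the dim range at a mean of 3.33, and its groups overlapped (3.112 to 3.305 in the pools, 3.298 to 3.522 in threat animals). The ornithine aminotransferase gene Oat fell by 0.44 (SE 0.047, adjusted p = 7.8e-06), and in polyamine synthesis Azin1, which protects ornithine decarboxylase, fell by 0.38 (SE 0.058, adjusted p = 0.00015) and the spermidine synthase gene Srm by 0.71 (SE 0.053, adjusted p = 3.4e-07). Arg1 was dim (1.89 in control and 2.36 in threat arrays), and Ass1 differed by 0.011 (SE 0.19, adjusted p = 0.97) with an SD of 0.62 between the pools. Genes of the amino acid response that the naming rule did not take in also went both ways. The ATF4 gene itself fell by 0.44 (SE 0.048, adjusted p = 8.4e-06) and Ddit3 by 0.43 (SE 0.050, adjusted p = 1.7e-05). Nupr1 rose by 0.59 (SE 0.064, adjusted p = 8.7e-06) and Eif4ebp1 by 0.32 (SE 0.046, adjusted p = 9.7e-05). Of the 24 tested genes of that list, 11 fell, 3 rose and 10 were not called.

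Over the 6 threat arrays alone, the tested genes whose values followed Slc7a2 most closely were Cdc73, Tspan17 and Prr14l (Pearson r 0.99 each), those for Slc7a1 were Cibar1, Adh6b and Doc2g (r 0.99 each), and those for Slc1a5 were Puf60, Wsb2 and Ticam1 (r 0.98 to 0.99). These are the best of 13078 genes over 6 points, and their own differences between the groups ran from -0.19 to 0.16.

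The same value to 3 decimals stood on 3 or more arrays in 9 of the 27 tested members that were not called and in 1 of the 16 called (Slc7a13), against 20.4% of all tested genes and 4.14% of all called genes. The 20.4% takes in the called genes, which share values less often. The share over all genes not called was not counted, so no excess is read for the 27. Slc43a1 had 1 value on 6 arrays.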
